A study of Mus musculus with 7 samples.

Results

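The homeostatic genes of microglia described here are P2ry12, P2ry13, Gpr34, Tmem119, Siglech, Fcrls, Sall1, Sparc and Slc2a5. They were taken by their symbols, which gave 9 of the 32285 genes in the count tables, each with 1 row. The tables hold single-cell transcriptomes of leukocytes (living CD45-positive cells, by exclusion of the dye DRAQ7) from the left, tumour-bearing brain hemisphere of female mice labelled wild type, aged 8 to 9 weeks, 21 days after implantation of the mouse glioma line GL261. There were 4 treatment groups. The PT2385/ICB group received both treatments (2 libraries), the PT2385 group received the HIF-2α inhibitor PT2385 at 10 mg/kg from day 7 (2 libraries), and the ICB group received immune checkpoint blockade with antibodies to PD-1 and TIM-3 (2 libraries). The untreated group is represented by 1 library, since the second pool of untreated mice was not used here. All mice carried the tumour, and no library of tumour-free brain was part of the comparison. Each library pooled 5000 sorted cells from each of 2 mice, so differences between single mice cannot be seen. The protocol describes a vehicle and isotype antibodies as controls, and the labels do not say which of these the untreated mice received. Whether each treatment reached its target was not analysed here.

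Microglia are the resident macrophages of the brain. In the undisturbed brain they survey the tissue and carry a set of transcripts that monocyte-derived macrophages largely lack, and this homeostatic programme is known to depend on TGF-β and CSF1 receptor signalling. Near injury, plaques or tumours microglia are known to enter reactive states, in which homeostatic transcripts are lower and genes of lipid handling, antigen presentation and chemokines are higher. Among the members, P2ry12 and P2ry13 encode receptors for ADP, P2ry12 being the one that steers microglial processes towards damaged tissue, and Gpr34 encodes a receptor for lysophosphatidylserine. Siglech encodes a sialic acid-binding lectin, Fcrls an Fc receptor-like protein, and Tmem119 a membrane protein widely used as a microglial marker. Sall1 encodes a zinc finger transcription factor that maintains microglial identity. Sparc encodes a secreted matricellular glycoprotein and Slc2a5 the fructose transporter GLUT5.

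Cells were classed from transcripts other than the members. Of 38468 cells kept, 4375 were microglia-like by 9 marker genes (among them Cx3cr1, Olfml3, Selplg, Crybb1, Ltc4s, Golm1, Adgrg1 and Upk1b), and 16357 were monocyte/macrophage-like. The microglia-like cells fell into 6 sub-clusters, of which 2 were called reactive (1115 cells) because their median log2 ratio of a list of reactive-state genes, set against the median sub-cluster, was at least 1. Sub-cluster 8 (318 cells, score 3.31) was led by Spp1, Cxcl13, Cst7 and Gpnmb. Sub-cluster 4 (797 cells, score 1.06, just inside the threshold) was led among others by C4b, Ccl12, Ccl4 and Ccl3, and the nearest sub-cluster outside it had a score of -0.035. The other 3260 cells are called other microglia-like cells. Apart from these stood 1712 cells with microglia markers at low depth and 1069 cells that carried microglia markers together with macrophage or T cell markers; the 645 of these with macrophage markers had 2.77 times their library's median UMIs. Libraries held 59839154 to 81960504 UMIs, and microglia-like cells contributed 1956630 (untreated) to 14549350 of them (PT2385/ICB, pool 2). Of the barcode sequences kept, 158 occurred in more than 1 library, and 4 microglia-like cells shared theirs with a microglia-like cell of another library.

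The 250 bases before the start of 4 members are shown because these genes bear on the fall described below: P2ry12 and Slc2a5 were the pair whose levels moved most nearly together, P2ry13 is the sister receptor gene of P2ry12 on the same chromosome, and Fcrls had the largest mean fall. The sequences are from RefSeq for build GRCm38.p6, while the submitters' processing notes name GRCm39 for the counts. Entries were found for 7 of the 9 members. Capitals mark AGGAAG, the core of the binding motif of PU.1 (the myeloid lineage factor encoded by Spi1), searched on both strands. P2ry12 lies at chr3:59262986-59263235, minus strand, P2ry13 at chr3:59210883-59211132, minus strand, Fcrls at chr3:87263525-87263774, minus strand and Slc2a5 at chr4:150119094-150119343, plus strand.
P2ry12: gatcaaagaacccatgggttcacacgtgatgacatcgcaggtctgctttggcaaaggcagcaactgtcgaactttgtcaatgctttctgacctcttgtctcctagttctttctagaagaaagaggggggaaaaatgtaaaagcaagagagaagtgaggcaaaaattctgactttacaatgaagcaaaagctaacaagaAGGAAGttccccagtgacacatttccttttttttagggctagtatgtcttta
P2ry13: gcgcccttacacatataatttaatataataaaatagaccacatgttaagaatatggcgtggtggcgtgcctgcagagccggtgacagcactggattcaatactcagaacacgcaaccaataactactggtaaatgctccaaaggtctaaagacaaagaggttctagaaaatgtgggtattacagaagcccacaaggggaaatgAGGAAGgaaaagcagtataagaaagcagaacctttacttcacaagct
Fcrls: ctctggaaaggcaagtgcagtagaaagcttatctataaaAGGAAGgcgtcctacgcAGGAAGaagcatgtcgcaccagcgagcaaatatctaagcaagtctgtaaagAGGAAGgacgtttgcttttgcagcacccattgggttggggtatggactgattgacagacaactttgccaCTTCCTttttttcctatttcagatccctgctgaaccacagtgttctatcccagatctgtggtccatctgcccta
Slc2a5: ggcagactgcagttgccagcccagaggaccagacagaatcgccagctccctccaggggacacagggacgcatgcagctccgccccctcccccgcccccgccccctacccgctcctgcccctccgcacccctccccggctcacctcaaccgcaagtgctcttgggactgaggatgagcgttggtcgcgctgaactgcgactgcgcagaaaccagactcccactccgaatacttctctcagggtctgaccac
The core was present in 1 copy 52 bases before the start of P2ry12, in 1 copy 47 bases before that of P2ry13, and in 4 copies upstream of Fcrls. Slc2a5 had none. Of the 7 members with an entry, 4 held the core in at least 1 entry (Sall1 in 1 of its 3), while 29.5% of 32851 promoter windows of the same length held it. The RUNX motif TGTGGT was found for 3 of the 7 members and in 14.0% of all windows. The MEF2 consensus was found for 0 of the 7 and in 2.92% of all windows, and a form with any 4 bases at its centre for 0 of the 7 and in 3.20%. Members were counted by gene and all promoters by window, so the shares are not directly comparable: a gene with several entries had more chances of a match. These motifs were chosen after the data had been seen, and a match of letters does not show binding.

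All 9 genes were far higher in microglia-like than in macrophage-like cells. The 9 members were at least 4-fold higher in microglia-like cells on average and higher in 7 of 7 libraries, as were 8.69% of the 6545 genes with a mean of at least 20 CPM (counts per 1000000 UMIs of the class) in microglia-like cells. The comparison is a description without a test, since the classes were made from transcripts of the same cells. P2ry12 was at 1396 and 1633 CPM with PT2385/ICB, 958 and 1089 with PT2385, 1678 and 1259.6 with ICB, and 1493 in untreated mice within microglia-like cells. Macrophage-like cells held 25.6 and 24.4 CPM with PT2385/ICB, 19.5 and 18.2 with PT2385, 40.0 and 27.2 with ICB, and 31.2 in untreated mice. The mean log2 ratio of microglia-like to macrophage-like cells, on log2(CPM + 1), was 5.64 ± 0.22 (SD, n = 7 libraries).

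The sister receptor P2ry13 ranged over 131 to 302 CPM (median 214) in microglia-like cells and 6.96 to 16.2 CPM (median 7.97) in macrophage-like cells, a log2 ratio of 4.37 ± 0.37. Gpr34 ranged over 557 to 1017 CPM (median 762) in microglia-like cells and 3.77 to 11.5 CPM (median 8.38) in macrophage-like cells (log2 ratio 6.64 ± 0.44). The class ranges of these genes did not overlap, nor did those of any other member, and the share of all genes with such ranges was not computed. The smallest ratio belonged to Tmem119, at 514 to 802 CPM (median 704) in microglia-like cells and 23.3 to 59.5 CPM (median 34.6) in macrophage-like cells, with a log2 ratio of 4.14 ± 0.38. Siglech had the largest, with 683 to 1262 CPM (median 916) in microglia-like and 2.65 to 5.12 CPM (median 3.10) in macrophage-like cells (log2 ratio 7.76 ± 0.21). The transcription factor gene Sall1 was at 182 to 258 CPM (median 224) in microglia-like cells and 0.759 to 1.95 CPM (median 0.891) in macrophage-like cells (log2 ratio 6.78 ± 0.21). Sparc and Slc2a5 had log2 ratios of 7.35 ± 0.26 and 6.44 ± 0.34. In the RefSeq annotation P2ry12 and P2ry13 lie within the span of Med12l, and Gpr34 within that of Cask; how reads of overlapping genes were assigned is not given in the sources used here. The ratio of Fcrls varied most between libraries (6.00 ± 0.90).

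**Figure D1:**
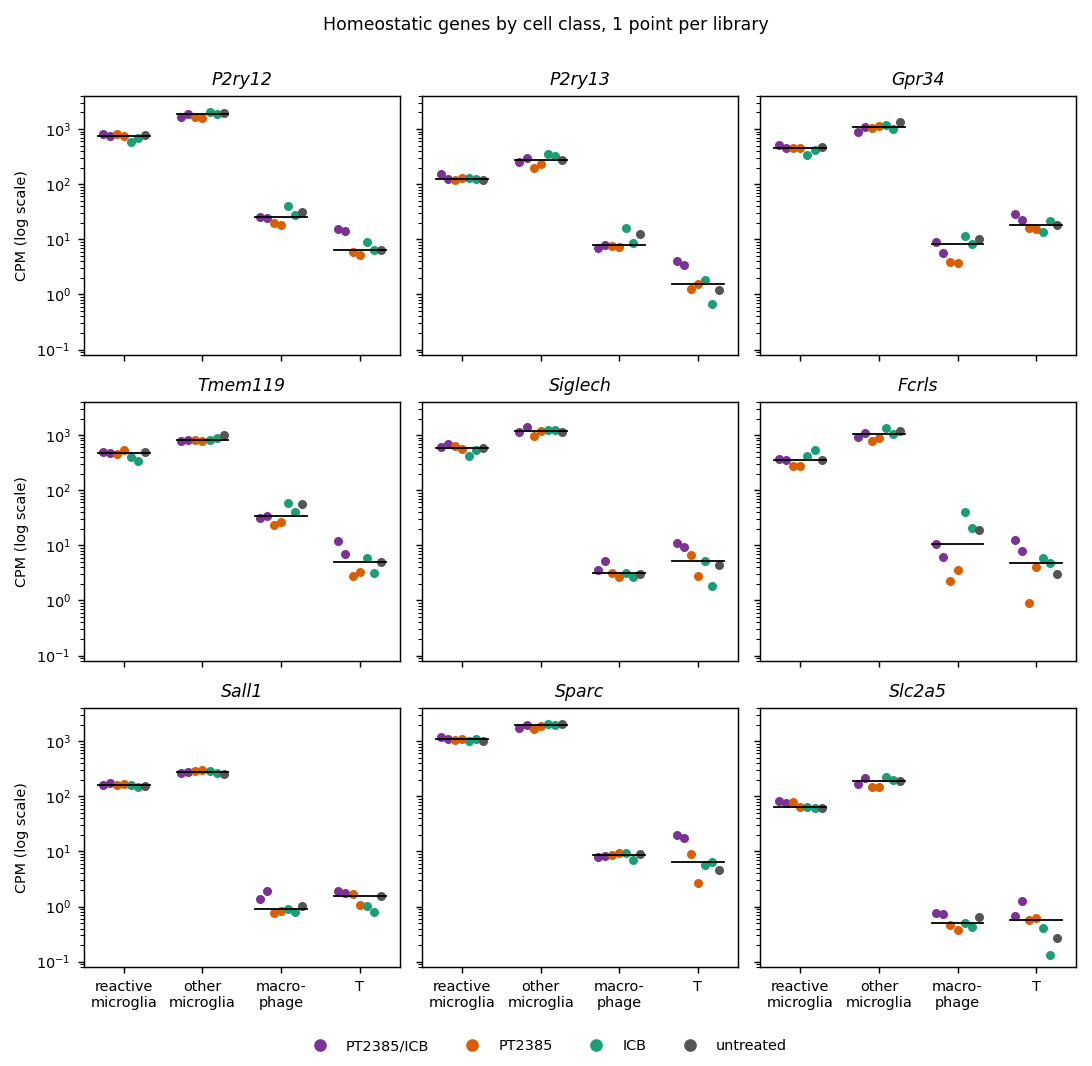
Level of each homeostatic gene in CPM (log scale) in reactive microglia-like, other microglia-like, macrophage-like and T-like cells, with 1 point per library coloured by treatment group and a line at the median of the 7 libraries. For each of the 9 genes the 7 reactive points lie below the 7 points of other microglia-like cells, and both lie far above macrophage-like and T-like cells.

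T-like cells were set beside macrophage-like cells, since free RNA in droplets can give either class transcripts that its cells did not make. P2ry12, P2ry13 and Tmem119 were higher in macrophage-like than in T-like cells in 7 of 7 libraries: the medians over libraries were 25.6 against 6.45 CPM for P2ry12, 7.97 against 1.55 CPM for P2ry13 and 34.6 against 4.91 CPM for Tmem119. Gpr34 was lower in macrophage-like than in T-like cells in 7 of 7 libraries (medians 8.38 and 17.8 CPM). Migratory dendritic-like cells had a median of 3.64 CPM of Gpr34, and the source of its T-like level was not tested. Siglech, Sall1, Sparc and Slc2a5 were at or near the T-like level, with macrophage-like medians of 3.10, 0.891, 8.61 and 0.509 CPM beside T-like medians of 5.28, 1.55, 6.31 and 0.566 CPM. Fcrls had medians of 10.4 CPM in macrophage-like and 4.73 CPM in T-like cells and was higher in macrophage-like cells in 4 of 7 libraries. Cells were thinned to 3000 UMIs, and those with fewer were left out, which kept 15876 of 16357 macrophage-like and 4910 of 5693 T-like cells. Of these, 6.99 ± 1.82% of macrophage-like cells (mean over libraries ± SD) and 2.35 ± 1.48% of T-like cells had a UMI of P2ry12. Without thinning, the pooled shares over all cells were 22.2% at a median of 12035 UMIs and 6.27% at 7466 UMIs. For Slc2a5 the thinned shares were 0.17 ± 0.049% of macrophage-like and 0.21 ± 0.195% of T-like cells, against 44.2 ± 5.48% of other microglia-like cells.

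Within macrophage-like cells, Fcrls and Tmem119 were unevenly spread. Fcrls reached 49.3 CPM and Tmem119 73.1 CPM in sub-cluster 9 (1115 cells, led by Ccl24, Ear2 and Mgl2), beside 3.34 and 20.2 CPM in sub-cluster 6 (3316 cells, led by Nos2 and Saa3). Across libraries, Fcrls in macrophage-like cells was at 10.4 and 6.28 CPM with PT2385/ICB, 2.30 and 3.60 with PT2385, 40.4 and 20.5 with ICB, and 19.3 in untreated mice. The 2 PT2385 libraries were the lowest and ICB pool 1 the highest, and no test was fitted to macrophage-like cells. Members were also found in some smaller classes. Siglech was at 1327 to 1881 CPM in plasmacytoid dendritic-like cells (6 libraries with at least 20 such cells), which are known to express it, beside 982 to 1414 CPM in other microglia-like cells. Sparc was at 1402 CPM in 51 endothelial-like cells pooled over libraries, at 406 to 462 CPM in neural or glioma-like cells (2 libraries) and at 117 to 169 CPM in choroid plexus-like cells (5 libraries). The 48 border-associated macrophage-like cells, pooled, held all 9 members, from 42.3 CPM of Slc2a5 to 560.2 CPM of P2ry12 and 689 CPM of Fcrls. They were split off from cells first classed as microglia-like. Their median doublet score was 0.072, beside 0.015 to 0.056 in the microglia-like sub-clusters. B-like cells also held all 9 members, with P2ry12 at 47.8 to 479 CPM (7 libraries). Whether either class made these transcripts was not tested.

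All 9 genes were lower in reactive than in other microglia-like cells, and lower in each of the 7 libraries. That direction alone was shared by 30.6% of the 6545 genes. For all 9 members the highest reactive library lay below the lowest library of other microglia-like cells, as it did for 16% of the genes. A fall of at least 2-fold on average, seen in 7 of 7 libraries, was found for 6 members (Fcrls, Slc2a5, Gpr34, P2ry12, P2ry13 and Siglech) and for 2.44% of the genes. The median log2 ratio was -1.08 over the 9 members and -0.16 over the 6545 genes. Members were left out of the genes that shaped the clusters, but the reactive cells were still chosen by their own transcripts, so these values are a description without a test.

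Among the receptors, P2ry12 held 822 and 755 CPM with PT2385/ICB, 811 and 760.2 with PT2385, 587 and 684 with ICB, and 781 in untreated mice in reactive cells. Other microglia-like cells held 1631 and 1864 CPM with PT2385/ICB, 1674 and 1586 with PT2385, 2022 and 1909 with ICB, and 1941 in untreated mice. The log2 ratio was -1.28 ± 0.28 (SD, n = 7), and the 2 ICB libraries had the steepest falls. P2ry13 was at 117 to 152 CPM (median 126) in reactive cells and 199 to 356 CPM (median 274) in other microglia-like cells, a ratio of -1.08 ± 0.30. Gpr34 was at 505 and 444 CPM with PT2385/ICB, 457 and 461 with PT2385, 341 and 421 with ICB, and 474 in untreated mice in reactive cells. It stood at 867 and 1081 CPM with PT2385/ICB, 1042 and 1141 with PT2385, 1203 and 998 with ICB, and 1358 in untreated mice in other microglia-like cells, with a ratio of -1.30 ± 0.32.

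Of the other surface proteins, Fcrls fell most on average, at 370.0 and 356 CPM with PT2385/ICB, 276 and 270.4 with PT2385, 424 and 529.8 with ICB, and 355 in untreated mice in reactive cells. In other microglia-like cells it was at 909.7 and 1111 CPM with PT2385/ICB, 769 and 872 with PT2385, 1347 and 1045 with ICB, and 1193 in untreated mice, giving a log2 ratio of -1.50 ± 0.28. Its reactive level was lowest in the 2 PT2385 libraries and highest in ICB pool 2. Siglech was at 419 to 679 CPM (median 577) in reactive cells and 982 to 1414 CPM (median 1185) in other microglia-like cells (ratio -1.07 ± 0.29). Tmem119 had a smaller ratio of -0.89 ± 0.27, with 341 to 535 CPM (median 468) in reactive cells and 779 to 999.7 CPM (median 818) in other microglia-like cells.

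Slc2a5 was at 83.7 and 75.0 CPM with PT2385/ICB, 77.8 and 65.2 with PT2385, 63.0 and 60.2 with ICB, and 62.2 in untreated mice in reactive cells. Other microglia-like cells had 167 and 213 CPM with PT2385/ICB, 150.5 and 148 with PT2385, 228 and 201 with ICB, and 193 in untreated mice (log2 ratio -1.40 ± 0.36). Sall1 and Sparc had the smallest falls together with Tmem119. Sall1 was at 162 and 172 CPM with PT2385/ICB, 161 and 171 with PT2385, 158 and 151 with ICB, and 154 in untreated mice in reactive cells. It was at 268 and 281 CPM with PT2385/ICB, 285 and 304 with PT2385, 289 and 268 with ICB, and 256 in untreated mice in other microglia-like cells, and its ratio of -0.79 ± 0.06 had the smallest spread between libraries of the 9. Sparc was at 1006 to 1186 CPM (median 1089.9) in reactive cells and 1667 to 2054 CPM (median 1934) in other microglia-like cells, a ratio of -0.81 ± 0.16. In the order of mean falls (Fcrls, Slc2a5, Gpr34, P2ry12, P2ry13, Siglech, Tmem119, Sparc, Sall1), each gene differed from its neighbour by less than 1 SD. The depth of the fall depended on which cells were called reactive. The ratio of P2ry12 was -1.90 when cells were clustered again under stricter limits of 500 genes and 5% mitochondrial UMIs per cell. It was -1.83 with the limits unchanged and a finer clustering (Leiden resolution 2).

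**Figure D2:**
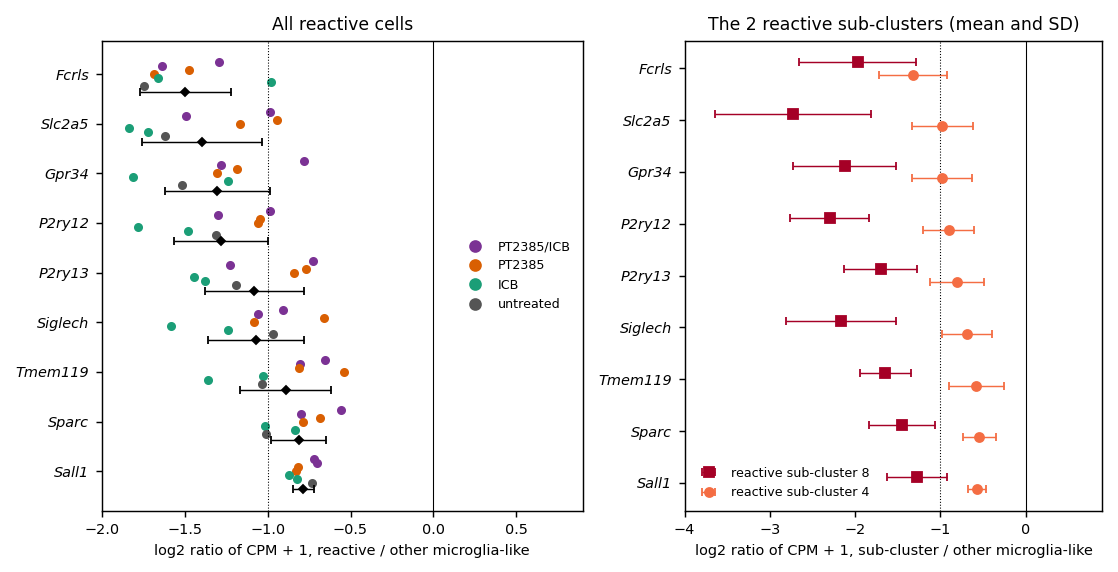
Left, log2 ratio of CPM + 1 in reactive over other microglia-like cells for each gene, with 1 point per library coloured by treatment group, and the mean and SD over the 7 libraries as a black diamond and bar. Right, mean and SD of the same ratio for each of the 2 reactive sub-clusters set against other microglia-like cells; the mean of each of the 9 genes is lower in sub-cluster 8 than in sub-cluster 4, and the dotted line marks a 2-fold fall.

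The 2 reactive sub-clusters differed in depth of the fall. In sub-cluster 8 (Spp1, Cxcl13, Cst7, Gpnmb), P2ry12 had a log2 ratio to other microglia-like cells of -2.30 ± 0.46, Slc2a5 of -2.73 ± 0.92 and Siglech of -2.17 ± 0.65 (SD, n = 7). In sub-cluster 4 (C4b, Ccl12, Ccl4, Ccl3) the ratios were -0.90 ± 0.30 for P2ry12, -0.98 ± 0.36 for Slc2a5 and -0.69 ± 0.29 for Siglech. Expressed as a share of the level in other microglia-like cells, sub-cluster 8 kept 15.1% of Slc2a5, 20.4% of P2ry12, 22.3% of Siglech and 41.4% of Sall1. Sub-cluster 4 kept 50.8% of Slc2a5, 53.6% of P2ry12, 62.2% of Siglech and 67.3% of Sall1. Fcrls was already at 40.1% in sub-cluster 4, the lowest share of the 9 genes there, and was at 25.6% in sub-cluster 8. In 2 of 7 libraries Fcrls ran the other way, at 535 CPM in sub-cluster 8 and 304 CPM in sub-cluster 4 of PT2385/ICB pool 1, and at 393 and 330.5 CPM in the same sub-clusters of the untreated library. Sub-cluster 8 also had the deepest cells, with a median of 15358 UMIs beside 10293 in sub-cluster 4. Cells were also thinned to 3000 UMIs, and those with fewer were left out, which kept 1074 of 1115 reactive and 3073 of 3260 other microglia-like cells. The ratio of reactive to other microglia-like cells was then -1.12 ± 0.24 for P2ry12, -1.33 ± 0.33 for Fcrls and -0.73 ± 0.16 for Sall1. At that depth 79.6 ± 4.53% of reactive cells and 98.5 ± 1.17% of other microglia-like cells had a UMI of P2ry12. The unthinned shares, over all cells, were 93.5% and 98.5%.

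The members moved together across the microglia-like cells. Over 37 sums (sub-cluster by library, at least 20 cells each), the Pearson correlation of log2(CPM + 1) of each member with the mean standardised profile of the other 8 ranged from 0.91 for Fcrls and 0.929 for Sall1 to 0.985 for Sparc and 0.99 for P2ry12. Among the 36 pairs the lowest correlation was 0.839 (Tmem119 with Fcrls), the median 0.945 and the highest 0.985 (P2ry12 with Slc2a5). The sums share libraries and cells of 1 clustering, and most of the spread lay between reactive and other sub-clusters, so the correlations are given without a p. By the same measure the genes whose profile was most like the mean of the members were Maf (0.979), Selplg (0.979), Vsir (0.979), Golm1 (0.978), Gm10790 (0.974), Cx3cr1 (0.973), Csf1r (0.973) and Apbb1ip (0.969). Over 18 class means the gene most like each member was Gm10790 for P2ry12 (0.967) and Siglech (0.946), Mertk for P2ry13 (0.954), Plxdc2 for Gpr34 (0.939) and 0610040J01Rik for Tmem119 (0.962). It was Gal3st4 for Fcrls (0.962), Capn3 for Sall1 (0.986), Zfp532 for Sparc (0.969) and Ebf3 for Slc2a5 (0.976).

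**Figure D3:**
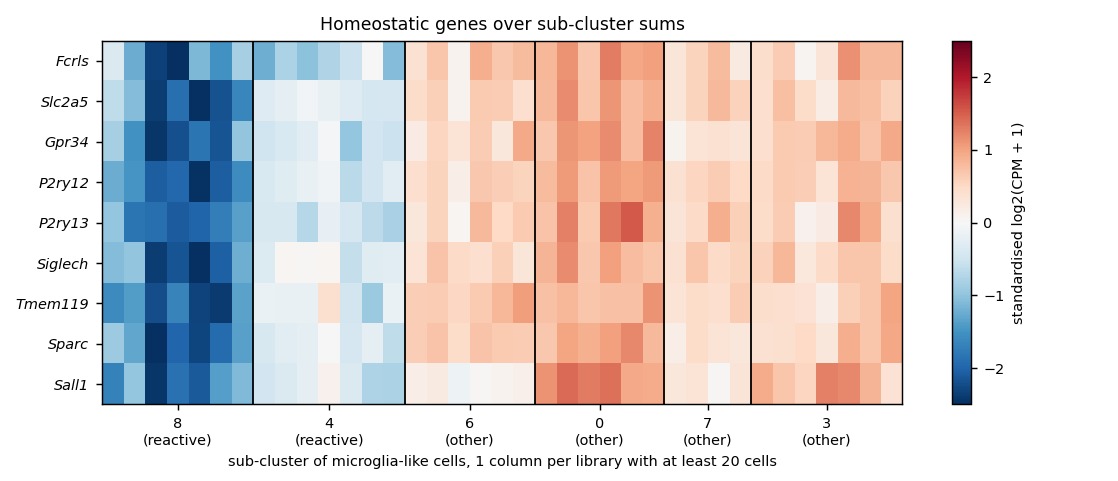
Standardised log2(CPM + 1) of the 9 genes (rows, ordered by their mean fall) in 37 sums of microglia-like cells (columns, 1 per library with at least 20 cells, grouped by sub-cluster and ordered by reactive score from left to right). Within each library sub-cluster 8 lies below sub-cluster 4, except for Fcrls in PT2385/ICB pool 1 and the untreated library, and sub-cluster 4 lies below the other sub-clusters, except for Tmem119 and Sall1 in PT2385 pool 2.

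Most, but not all, other genes of the microglial programme were also lower in reactive cells. Of 45 further homeostatic genes, 44 had at least 20 CPM, and 4 of them were at least 2-fold lower in reactive cells in 7 of 7 libraries: Ecscr (-1.35 ± 0.28), Maf (-1.08 ± 0.16), Rnase4 (-1.07 ± 0.21) and Cd164 (-1.01 ± 0.15; log2 ratio ± SD, n = 7). The median over the 44 was -0.48. Spi1, which encodes PU.1, had a ratio of -0.06 ± 0.06. The TGF-β receptor gene Tgfbr1 had one of -0.73 ± 0.16, and Tgfbr2 one of -0.09 ± 0.12. Trem2 (-0.08 ± 0.12) and Irf8 (-0.04 ± 0.09) hardly differed either, and Tyrobp was higher in reactive cells in 7 of 7 libraries (0.31 ± 0.13). Of the 9 microglia markers 2 passed the same rule, Upk1b (-1.55 ± 0.51) and Selplg (-1.10 ± 0.27), while Ltc4s (-0.98 ± 0.16) and Golm1 (-0.95 ± 0.27) came near it. The ratio of Upk1b was below that of every member. The marker Crybb1 did not fall, at 0.09 ± 0.22 and higher in reactive cells in 4 of 7 libraries. Of the list that defined the reactive state, 20 genes had at least 20 CPM and 18 were at least 2-fold higher in 7 of 7 libraries, as were 3.45% of the 6545 genes; that list chose the cells. Its largest log2 ratios were 5.82 ± 0.82 for Cxcl13, 4.89 ± 1.17 for Gpnmb, 4.82 ± 1.09 for Spp1 and 4.73 ± 0.67 for Cst7. Clec7a of that list was not analysed here. Macrophage markers were at 0.020 (sub-cluster 4) and 0.027 (sub-cluster 8) of the level in their own class as a median over the list, and at 0.011 to 0.014 in the 4 other sub-clusters. Among these markers were Ccr2, at 4.56 CPM in sub-cluster 4 and 3.36 CPM in sub-cluster 8, and Lyz2, at 758 and 1679.6 CPM, beside 265 to 342 CPM of Lyz2 in the other sub-clusters. The doublet score was 0.056 in sub-cluster 8, 0.031 in sub-cluster 4 and 0.015 to 0.029 in the others, and the mitochondrial share 1.92%, 1.44% and 0.89 to 1.29% in that order. The part of these values in the fall was not tested.

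Treatment was compared over all microglia-like cells, with UMIs summed per library and tested with edgeR's quasi-likelihood test, Benjamini-Hochberg adjusted over 12426 genes. The effects of PT2385 and of ICB were estimated in an additive model, each from 4 libraries with the treatment and 3 without. That model takes each effect to be alike with and without the other treatment. Neither PT2385 alone nor ICB alone was tested against the untreated library. In a fit without that library the PT2385 effect becomes PT2385/ICB against ICB, and the ICB effect becomes PT2385/ICB against PT2385. No member passed an adjusted p of 0.05 in any of the 5 comparisons by edgeR, and none by DESeq2. At an unadjusted p under 0.05, edgeR counted 1 of 9 for PT2385 (Fcrls), 4 of 9 for ICB (P2ry13, Siglech, Fcrls and Slc2a5), 0 for PT2385/ICB against untreated, 0 for PT2385/ICB against ICB, and 4 for the interaction (P2ry12, Gpr34, Tmem119 and Fcrls). Over all genes edgeR counted 5.1% for PT2385, 13.7% for ICB, 9.09% for PT2385/ICB against untreated, 8.72% for PT2385/ICB against ICB and 13.1% for the interaction at that level. DESeq2 gave the same numbers of members. For ICB, however, 3 members (P2ry13, Fcrls and Slc2a5) passed without ICB pool 2, Fcrls passed without the untreated library, and 4 members passed with no filter on low counts. Few genes of any kind passed: 0% for PT2385, 0.137% for ICB, 0.121% for PT2385/ICB against untreated, 0.0724% for PT2385/ICB against ICB and 0.129% for the interaction. The 0 genes for PT2385 compare with 634 at an unadjusted p under 0.05 and 5 by DESeq2.

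With PT2385 alone each of the 9 genes was lower in both libraries than in the untreated library, except Sall1 in PT2385 pool 2. P2ry12, given above, was lowest in the 2 PT2385 libraries and highest in ICB pool 1. Fcrls was at 753 and 954 CPM with PT2385/ICB, 359 and 510.2 with PT2385, 1126 and 772 with ICB, and 869 in untreated mice. The PT2385 estimate for Fcrls was -0.50 ± 0.20 (log2 difference ± SE, edgeR adjusted p = 0.939), and its ICB estimate 0.57 ± 0.20 (adjusted p = 0.267). P2ry13 was at 222 and 260.1 CPM with PT2385/ICB, 131 and 168 with PT2385, 302 and 214 with ICB, and 214 in untreated mice. Its ICB estimate was 0.47 ± 0.15 (edgeR adjusted p = 0.214) and its PT2385 estimate -0.26 ± 0.14 (adjusted p = 0.939). The 2 ICB pools stood apart for both genes, pool 1 being higher.

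For ICB the 9 estimates were all positive, with a median of 0.27 beside -0.003 over all genes. Each combines the difference between libraries with PT2385 and the difference between libraries without it, so it does not describe ICB alone. The estimates ran from 0.03 ± 0.14 for Tmem119 and 0.08 ± 0.18 for Gpr34 to 0.48 ± 0.17 for Slc2a5 and that of Fcrls. Siglech was at 0.33 ± 0.14, P2ry12 at 0.27 ± 0.15, Sparc at 0.18 ± 0.13 and Sall1 at 0.16 ± 0.11. For PT2385 7 of the 9 were negative (median -0.19, beside -0.01 over all genes). P2ry12 had -0.20 ± 0.15, Gpr34 -0.26 ± 0.18, Slc2a5 -0.19 ± 0.17, Sparc -0.15 ± 0.13, Tmem119 -0.12 ± 0.14, Siglech 0.00 ± 0.14 and Sall1 0.02 ± 0.11. In the model with 1 mean per group, PT2385/ICB against untreated had a median of -0.03 over the members, and PT2385/ICB against ICB one of 0.03. The interaction was positive for all 9, with a median of 0.56, from 0.16 ± 0.21 for Sall1 to 0.82 ± 0.31 for Fcrls (adjusted p = 0.316 by edgeR) and with 0.59 ± 0.21 for Tmem119 (adjusted p = 0.3). The untreated library has no replicate, so its spread was taken from the other groups, and the 5 comparisons share libraries. Without the untreated library the additive model gives PT2385 only as PT2385/ICB against ICB, with a median of 0.03 over the members. ICB is then PT2385/ICB against PT2385, with a median of 0.50. That fit therefore cannot show how far the negative PT2385 estimates depended on the untreated library.

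**Figure D4:**
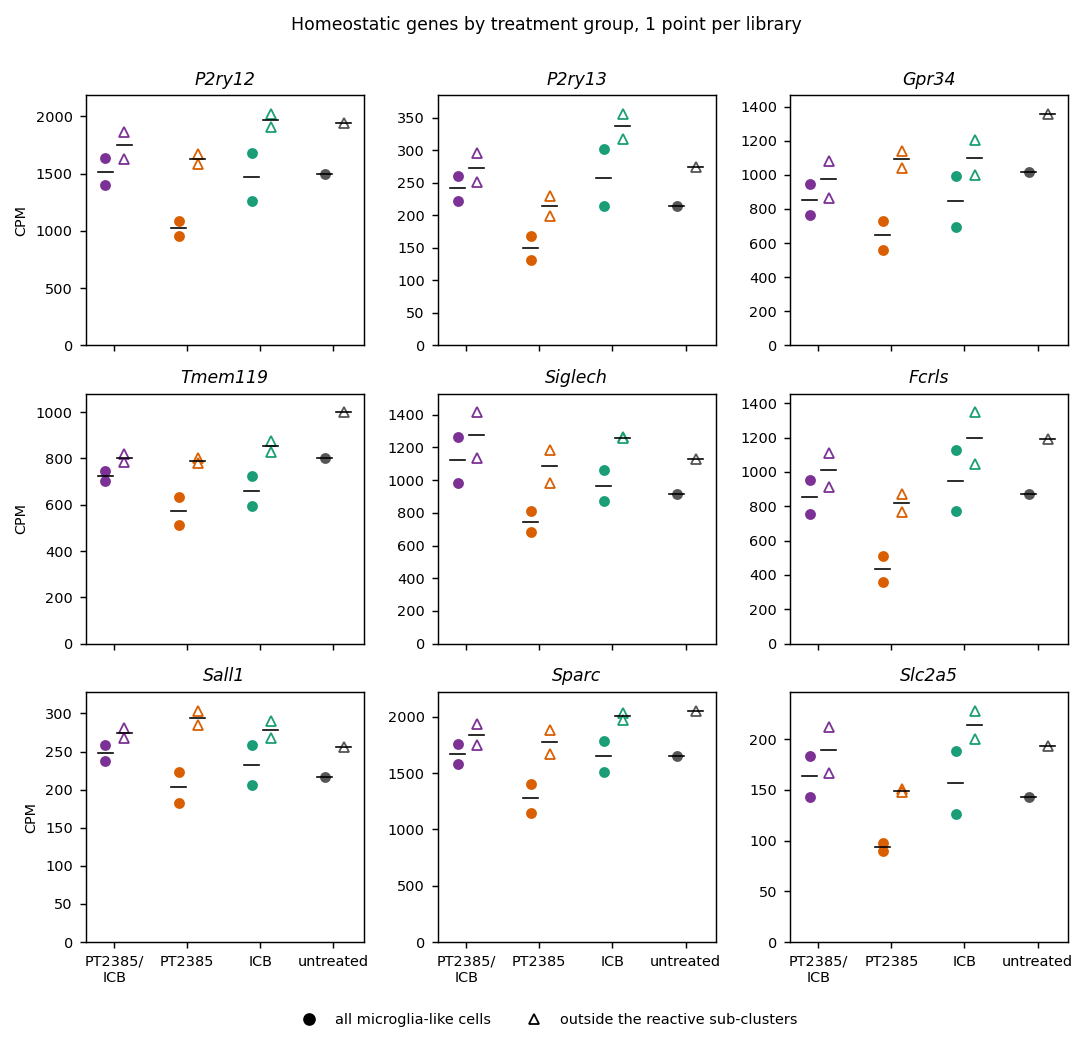
Level of each gene in CPM by treatment group, for all microglia-like cells (filled circles) and for those outside the reactive sub-clusters (open triangles), with 1 point per library and a short line at the group mean. The 2 PT2385 libraries hold the lowest circles for P2ry12, P2ry13, Siglech, Fcrls, Sparc and Slc2a5; ICB pool 2 lies between them for Gpr34 and Tmem119, and ICB pool 2 and the untreated library do for Sall1.

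The share of reactive cells differed between the same libraries. Of microglia-like cells, 23.1% and 14.2% were reactive with PT2385/ICB, 75.6% and 48.2% with PT2385, 14.0% and 37.7% with ICB, and 31.7% in untreated mice. The exact 95% binomial intervals, which cover counting error only, ran from 69.6 to 81.0% in PT2385 pool 1 and from 11.3 to 17.0% in ICB pool 1. The PT2385 libraries had the highest reactive shares and the lowest levels of P2ry12, P2ry13, Siglech, Fcrls, Sparc and Slc2a5, on 234 and 326 microglia-like cells, beside 930 and 1545 with PT2385/ICB, 600 and 469 with ICB and 271 in untreated mice. Summed macrophage markers within microglia-like cells were highest in the same libraries, at 1322 and 1154 CPM with PT2385 and 548 to 1089 CPM in the other 5, beside 18892 CPM in macrophage-like cells. Choroid plexus markers ran from 2.04 CPM in untreated mice to 345 CPM in PT2385/ICB pool 2 and were 5.90 and 16.6 CPM with PT2385; the part of either list in the result was not tested.

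With only the microglia-like cells outside the reactive sub-clusters, the ICB median over the 9 members was 0.07, in place of 0.27, and the interaction median 0.12, in place of 0.56. The PT2385 median was -0.22, and 6 of the 9 members had an unadjusted p under 0.05, as had 7.06% of all genes, though none passed after adjustment over 11380 genes. For ICB 3 of the 9 members had an unadjusted edgeR p under 0.05, as had 1161 of the 11380 genes, and no member passed. Cells outside the reactive sub-clusters numbered 57 and 169 with PT2385, 185 in untreated mice and 292 to 1326 in the other libraries. Fcrls was at -0.37 ± 0.11 (edgeR adjusted p = 0.446) and P2ry13 at -0.33 ± 0.10 (adjusted p = 0.422) for PT2385 in these cells. Sall1 was at 0.04 ± 0.09. Its levels outside the reactive sub-clusters ran from 256 to 304 CPM over the 7 libraries. The ICB estimate of Gpr34 was negative there, at -0.23 ± 0.10 (adjusted p = 0.482).

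**Figure D5:**
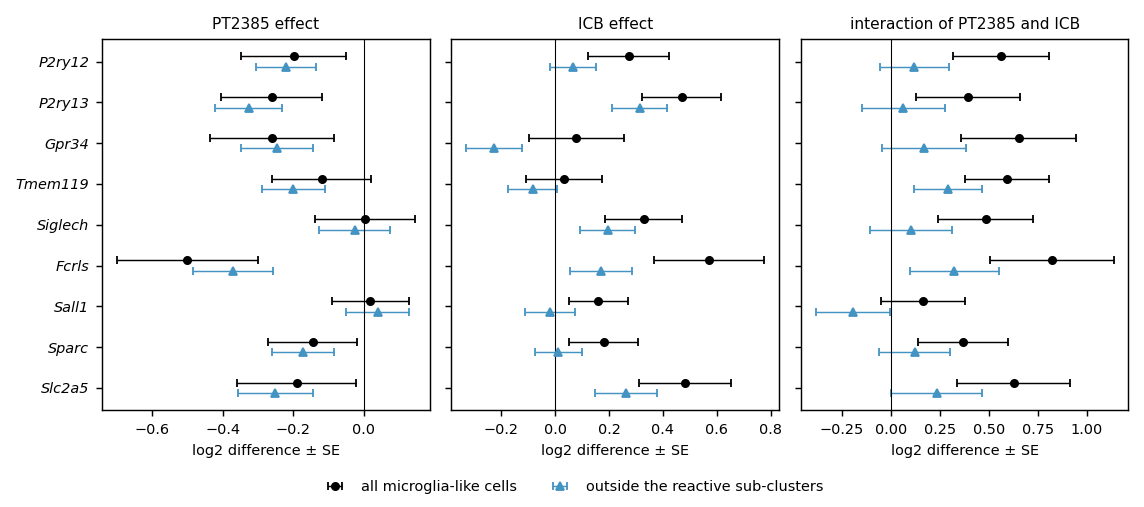
Log2 difference ± SE from edgeR for PT2385 (left), ICB (middle) and their interaction (right) in all microglia-like cells (circles) and outside the reactive sub-clusters (triangles). No point passes an adjusted p of 0.05, and outside the reactive sub-clusters 7 of 9 ICB points (not Gpr34 and Tmem119) and 8 of 9 interaction points (not Sall1) lie closer to 0.

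Of 44 further homeostatic genes tested, 0 passed in each of the 5 comparisons. The lowest p values belonged to Cd164 (-0.36 ± 0.13) and Adora3 (0.26 ± 0.10) for PT2385 (edgeR adjusted p = 0.939 for both). For ICB they were Tgfb1 (0.41 ± 0.10, adjusted p = 0.145) and Rtn4rl1 (0.38 ± 0.11, adjusted p = 0.194). Tgfb1 also had the lowest p for PT2385/ICB against untreated (0.58 ± 0.14, adjusted p = 0.216, followed by Slc46a1 at 0.73 ± 0.27) and against ICB (0.31 ± 0.11, adjusted p = 0.4495, followed by Itgb5 at 0.31 ± 0.14). For the interaction they were Rnase4 (0.79 ± 0.26, adjusted p = 0.274) and Itgb5 (0.61 ± 0.22, adjusted p = 0.297). None of the 9 microglia markers passed. Of 23 reactive-list genes tested, Lgals3 fell with PT2385/ICB against ICB (-1.56 ± 0.22, adjusted p = 0.0495), and Lgals3 (-4.31 ± 0.41) and Fabp5 (-5.06 ± 0.51, adjusted p = 0.00939 for both) passed for the interaction. For PT2385/ICB against ICB, edgeR called 0 genes with RLE size factors, without either PT2385/ICB library or without the untreated library (469 to 1086 genes at an unadjusted p under 0.05). For the interaction it called 0 genes with doublets kept, with the members among the variable genes, outside the reactive sub-clusters or with the mixed sub-clusters included (700 to 1489 genes at an unadjusted p under 0.05). With all settings as reported, DESeq2 called 29 and 78 genes for these comparisons. Both are also abundant in macrophages, with log2 ratios of microglia-like to macrophage-like cells of -3.92 for Lgals3 and -3.29 for Fabp5.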

How the data were processed

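Droplet 3' single-cell libraries were analysed from the deposited UMI counts per gene and barcode, which are raw counts made by the authors. The submitters' processing notes name Cell Ranger 2.2.0 with build GRCm39, but Cell Ranger 7.0.0 stands in the file headers. Seurat 5, also in the notes, was not used here.

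Of 41033 barcodes, 40416 passed limits of 300 genes per barcode and 10% mitochondrial UMIs. Doublets were scored with Scrublet in scanpy 1.11.5; its automatic threshold marked 11 cells, so the top 0.8% per 1000 barcodes were removed, 1948 in all. After scaling each cell to 10000 counts, 3000 variable genes without the members, 50 components and 15 neighbours gave Leiden clusters at resolution 1, clustered again to 2 further levels. Clusters were named from marker lists (at least 3 markers, each in 10% of cells). Sub-clusters under 1 in 3 of the library's median UMIs, or with another class's markers at a median of at least 0.2 of its own level, were set apart. These limits and the reactive threshold were set after the data were seen, and the members and lists were chosen with earlier results of these data known.

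UMIs were summed per library and tested with edgeR 4.0.16 (TMM, filterByExpr, quasi-likelihood, Benjamini-Hochberg adjustment, threshold 0.05). A check of this step on simulated data covered only the PT2385 and ICB effects, with planted changes larger than the members' main estimates. The additive model has PT2385 and ICB as terms; the other model has 1 mean per group. DESeq2 1.42.0 and other settings were alternatives. Ratios between cell classes are on log2(CPM + 1), with a pseudocount of 1. All 9 members are named for the ratios between cell classes and for the PT2385 and ICB effects. The other comparisons are given as medians over the members, with some members named for the interaction. Other list genes are named by passing the rule, by the lowest p or the largest ratio, or as examples. Library totals were 59839154 to 81960504 UMIs. The treatment tests rest on the UMIs of microglia-like cells only, from 1956630 (untreated) to 14549350 (PT2385/ICB, pool 2), and on 1 or 2 libraries per group. Nothing says the pools of a group differ in more than the mice, so p-values measure the spread between pools. The untreated group, with 1 library, was kept in every main fit.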

Additional observations from a re-analysis of the deposited data

How the results depend on the processing

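No paired analysis was possible because the labels number the mice and not paired replicates, and the replicate numbers used here follow the order of records. In no setting did a ratio of microglia-like to macrophage-like cells, or of reactive to other microglia-like cells, change sign for a member. The size of the reactive fall depended on which cells were called reactive. With a strict cell filter (500 genes, 5% mitochondrial UMIs) the log2 ratios of reactive to other microglia-like cells were -1.90 for P2ry12, -1.61 for P2ry13, -1.93 for Gpr34, -1.38 for Tmem119, -1.73 for Siglech, -1.92 for Fcrls, -1.05 for Sall1, -1.22 for Sparc and -2.10 for Slc2a5. At Leiden resolution 2 they were -1.83 for P2ry12, -1.49 for P2ry13, -1.82 for Gpr34, -1.32 for Tmem119, -1.66 for Siglech, -1.80 for Fcrls, -0.96 for Sall1, -1.12 for Sparc and -2.08 for Slc2a5. With members among the variable genes they were -1.64 for P2ry12, -1.46 for P2ry13, -1.71 for Gpr34, -1.17 for Tmem119, -1.45 for Siglech, -1.95 for Fcrls, -0.89 for Sall1, -1.09 for Sparc and -1.88 for Slc2a5. With each library's cells split at their median reactive score they were -0.82 for P2ry12, -0.71 for P2ry13, -0.80 for Gpr34, -0.60 for Tmem119, -0.75 for Siglech, -1.05 for Fcrls, -0.47 for Sall1 and -0.58 for Sparc. With doublets kept the ratio of Sall1 was -0.71. The microglia-like to macrophage-like ratio of Siglech was 7.51 with doublets kept, 7.50 with the strict filter and 8.00 with thinned cells.

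Treatment calls depended on 2 choices and 2 libraries. Without a filter on low counts 1 member was called for PT2385 (Fcrls), 4 for ICB (P2ry13, Siglech, Fcrls and Slc2a5) and 1 for the interaction (Fcrls), with 107, 827 and 572 genes called in all. With the mixed sub-clusters included, an alternative chosen after seeing the data, 4 members were called for ICB (P2ry13, Siglech, Fcrls and Slc2a5) and 1839 genes in all. Leaving out each library in turn gave 0 to 3 members for ICB and 0 for the other comparisons. The 3 came without ICB pool 2 (P2ry13, Fcrls and Slc2a5), with 531 genes in all, and 1 (Fcrls) came without the untreated library, with 525 genes in all. Over these fits the genes called ran from 0 to 10 for PT2385, 0 to 531 for ICB, 0 to 160 for PT2385/ICB against ICB, 0 to 48 for PT2385/ICB against untreated and 1 to 489 for the interaction. DESeq2 called 5 genes for PT2385, 117 for ICB, 31 and 29 for PT2385/ICB against untreated and against ICB, and 78 for the interaction, and 0 members. Without the untreated library the PT2385 effect is PT2385/ICB against ICB, with a median of 0.03 over the members. The ICB effect is then PT2385/ICB against PT2385. PT2385/ICB against untreated and the interaction could not be estimated in that fit.

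Signs of uncalled estimates changed as follows. For PT2385, Siglech was at -0.0017 with the strict filter and -0.026 outside the reactive sub-clusters. With single libraries left out, the PT2385 estimate ran from -0.33 to 0.027 for P2ry12, -0.42 to 0.0024 for Gpr34, -0.22 to 0.12 for Tmem119, -0.13 to 0.20 for Siglech, -0.053 to 0.080 for Sall1, -0.22 to 0.0029 for Sparc and -0.36 to 0.039 for Slc2a5. The ICB estimate ran from -0.068 to 0.34 for Gpr34 and from -0.086 to 0.27 for Tmem119 in those fits. They include the fit without the untreated library, in which both effects compare other groups, as given above. Outside the reactive sub-clusters the ICB estimates were -0.23 for Gpr34, -0.083 for Tmem119 and -0.020 for Sall1, and the interaction of Sall1 was -0.20. Tmem119 was at -0.026 for ICB with doublets kept and -0.016 at resolution 2. The cause of these changes was not tested. Slc2a5, P2ry13 and Sall1 had the lowest mean levels of the members in microglia-like cells (139, 216 and 226 CPM). Sall1 nevertheless had the smallest SE of the members for PT2385 and for ICB (0.11 for both). The PT2385 and untreated libraries, with 234 to 326 microglia-like cells, limit every treatment estimate except PT2385/ICB against ICB. The libraries of that comparison held 469 to 1545 microglia-like cells.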
